A study of Mus musculus with 2 samples.

Results

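The 33 genes described here are type I interferon-stimulated genes, the transcripts that cells make in response to interferon alpha and beta. They were chosen by name, with earlier results of these data known, and all 33 were found among the 32285 mouse genes of both count matrices. The 2 libraries were single-cell RNA libraries of mouse brain that held an implanted GL261 tumour and the tissue around it, taken on day 24 after implantation. GL261 is a mouse glioma line that serves as a model of glioblastoma in C57BL/6 hosts. The hosts of the first library carried the label C57BlL6 WT and those of the second the label Cacna1H-/-, a loss of the gene for the T-type calcium channel Cav3.2. The implanted cells are the same line in both groups and do not carry the host's alleles. Each group was 1 library, and neither the number of animals behind it nor their age or sex was stated. Differences below therefore cannot be set against a spread between replicates and carry no test, and every interval in brackets is a 95% interval for counting error, or for a share of cells an exact binomial one over the cells of 1 library, and says nothing of the spread between animals.

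Cacna1h itself had 13 unique molecular identifiers (UMIs) under the wild type label, or 0.250 CPM (0.133 to 0.427), and 168 under the knockout label, or 1.67 CPM (1.42 to 1.94). CPM gives UMIs as a rate of all mouse UMIs in those cells. The direction goes against the labels, unless the tags lie outside the deleted part, so the libraries are named by their labels, wild type and knockout, throughout. After filtering, 3110 and 6575 cells with 52031677 and 100764971 mouse UMIs were kept, and pairs of values below give the library labelled wild type first. All 1851 host cells of the library labelled wild type that could be sexed carried Y-linked transcripts without Xist, whereas the library labelled knockout held 3439 host cells with Xist alone, 826 with Y-linked UMIs alone and 122 with both. Results are therefore also given for the Y-linked cells of each library. The libraries shared 21 cell barcodes, 7 of them among the kept cells. Cells were sorted into classes by marker genes, and a class name ends in "-like" because it rests on those markers alone.

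Type I interferons signal through the receptor chains Ifnar1 and Ifnar2 and the kinases Jak1 and Tyk2. These activate a complex that holds Stat2 and Irf9 and binds the interferon-stimulated response element in the promoters of its targets. The products block viral RNA, tag proteins with Isg15, restrict particles at membranes or in the nucleus, and in part feed back on the pathway. Many of the same genes also respond to interferon gamma, which T and NK cells secrete. In tumours this response is studied because it accompanies antigen presentation and the recruitment of T cells.

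The promoter stretches below are shown because they hold the letters of the response element core, which the choice of members did not use. RefSeq promoters (GRCm38.p6) were at hand for 25 of the 33 members, and the core GAAANNGAAA was searched on both strands, overlapping matches included, in the 250 bases before each start. It was present in 11 of 25 member genes (44.0%) and in 936 of 27025 genes overall (3.46%), and at least 2 copies were present in 6 of 25 (24.0%) and in 57 of all (0.211%). Each line gives a stretch 5′ to 3′ on the strand of the gene, with the core or its reverse complement TTTCNNTTTC in capitals.

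Isg15 (chr4:156200860-156200911, minus strand): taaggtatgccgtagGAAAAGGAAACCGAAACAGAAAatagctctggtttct
Ifit1 (chr19:34640770-34640828, plus strand): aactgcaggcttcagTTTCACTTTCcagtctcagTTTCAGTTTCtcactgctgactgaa
Ifit3 (chr19:34583358-34583431, plus strand): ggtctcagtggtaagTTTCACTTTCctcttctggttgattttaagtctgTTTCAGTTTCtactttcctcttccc
Ifit3b (chr19:34607754-34607827, plus strand): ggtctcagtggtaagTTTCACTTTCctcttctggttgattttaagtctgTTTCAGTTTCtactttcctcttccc
Oas1a (chr5:120907526-120907560, minus strand): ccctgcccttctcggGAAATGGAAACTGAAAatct
Oas3 (chr5:120777710-120777749, minus strand): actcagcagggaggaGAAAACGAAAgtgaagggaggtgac
Bst2 (chr8:71537572-71537617, minus strand): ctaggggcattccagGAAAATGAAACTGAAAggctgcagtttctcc
Rsad2 (chr12:26456548-26456587, minus strand): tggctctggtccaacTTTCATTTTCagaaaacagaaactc
Stat2 (chr10:128270261-128270300, plus strand): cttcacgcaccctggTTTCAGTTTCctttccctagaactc
Slfn5 (chr11:82951932-82951971, plus strand): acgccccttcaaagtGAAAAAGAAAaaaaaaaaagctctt

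Isg15 held 3 overlapping copies, Oas1a and Bst2 2 overlapping copies each, and Ifit1, Ifit3 and Ifit3b 2 separate copies on the opposite strand. The stretches of Ifit3 and Ifit3b were identical letter for letter. Trim30a was the other member with a core. No match in the other 14 member genes says only that these letters are not in this window. Several members are neighbours in the genome (mm10). The 4 Ifit members lie on chromosome 19 between 34550694 and 34650009, Oas1a, Oas2 and Oas3 on chromosome 5 between 120730333 and 120907521, and Oasl1 and Oasl2 on chromosome 5 between 114896936 and 114937915. Parp9, Parp14 and Dtx3l lie on chromosome 16 between 35832874 and 35972605, where Parp9 and Dtx3l overlap at their starts on opposite strands, and Rsad2 and Cmpk2 on chromosome 12 between 26442746 and 26479837. Counting used tags near the 3′ end, and 42.3% of the 90-base windows in the last 500 bases of Oas1a were also found in its paralog Oas1g, so Oas1a values are uncertain. For Ifit3 the share was 6.57%, with Ifit3b, and for the other 31 members it was 0%.

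The summed level of the 33 members differed severalfold between cell classes of the same library. It was highest in monocyte-like cells, at 9286 and 12540.0 CPM, and next highest under the wild type label in plasmacytoid dendritic-like cells (6564 and 8183 CPM). Macrophage-like cells stood at 4609 and 6012 CPM, microglia-like cells at 4355 and 4727 CPM and tumour-like cells at 4229.9 and 6854 CPM. The T cell-like, B cell-like and NK cell-like levels were 3129 and 4808 CPM, 2318 and 4029 CPM and 1721 and 2597 CPM, so that NK cell-like cells had the lowest level among the 11 classes that held 50 or more cells per library. Between neighbours in this order, counting intervals separated most classes, but without replicates the order holds for these libraries only. Neuroblast-like cells, neuronal precursors with 24 and 90 cells, were far lower, at 188 and 443 CPM. RNA free in the droplets is counted in every class, and this low level is an upper limit on it in neuroblast-like cells.

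Different members led in different classes. In plasmacytoid dendritic-like cells Bst2, the tetherin that holds budding particles at the membrane, made up 45.5% and 36.2% of the summed level, at 2984 and 2961 CPM. Bst2 also led in tumour-like cells, with 27.4% and 26.98%. Ifi27l2a, a small membrane protein, led in T cell-like cells with 27.9% and 41.8%. In NK cell-like cells the leader was Sp100, a protein of nuclear bodies, with 16.6% and 16.4%. Monocyte-like cells were the highest class for 22 members under the wild type label, for 19 under the knockout label and for 18 under both. Herc6, the ligase that attaches Isg15 in mice, and Ifi35 were highest in tumour-like cells in both libraries. Herc6 stood there at 351 and 665 CPM, against 204 and 305 CPM in monocyte-like cells. Oasl1, which in mice restrains the translation of Irf7, was highest in type 1 dendritic-like cells in both libraries, at 257 and 439 CPM, and reached 7.15 and 8.02 CPM in tumour-like cells.

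**Figure D1:**
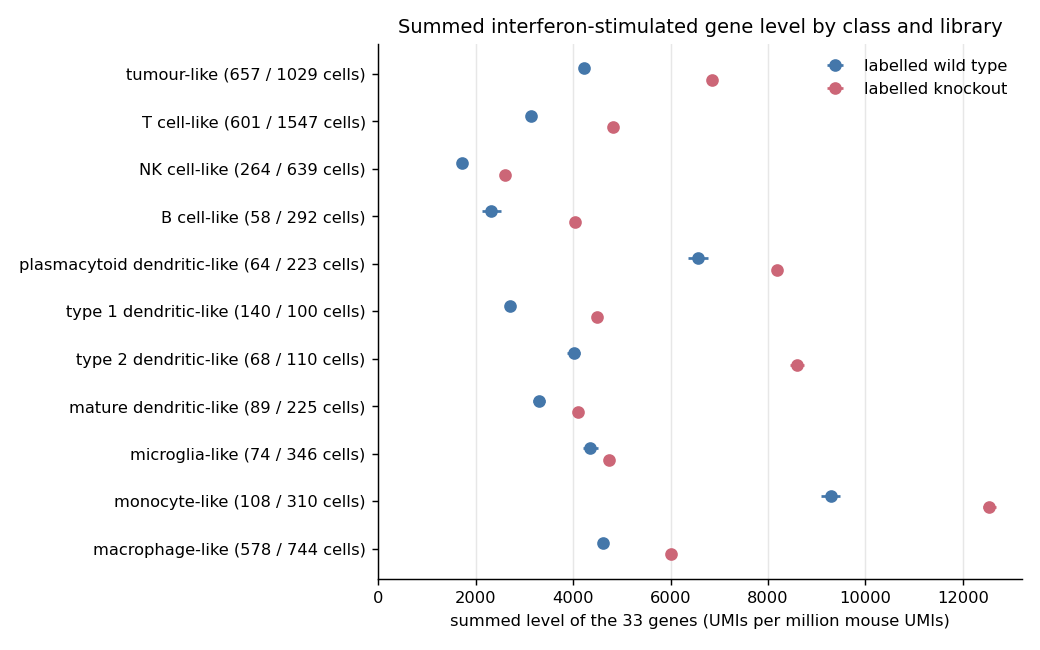
Summed level of the 33 members in CPM, by cell class and library, with 95% Poisson intervals for counting error. Monocyte-like cells were highest in both libraries, and in each of the 11 classes the point of the library labelled knockout lies above that of the library labelled wild type.

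The summed member level was higher under the knockout label in all 11 classes. Among the 6 classes that held 100 or more cells per library, the summed level of type 1 dendritic-like cells stood at 2708 and 4491 CPM, a ratio of 1.66 (1.61 to 1.71). In tumour-like cells it stood at 4229.9 and 6854 CPM, a ratio of 1.62 (1.61 to 1.63). For T cell-like cells the levels were 3129 and 4808 CPM, a ratio of 1.54 (1.51 to 1.56), and for NK cell-like cells 1721 and 2597 CPM, a ratio of 1.51 (1.46 to 1.56). The smallest of the 6 differences were those of monocyte-like cells, at 9286 and 12540.0 CPM, a ratio of 1.35 (1.32 to 1.38), and of macrophage-like cells, at 4609 and 6012 CPM, a ratio of 1.30 (1.29 to 1.32). In the classes with fewer cells the ratio ranged from 1.09 (1.05 to 1.13) in microglia-like cells to 2.14 (2.06 to 2.22) in type 2 dendritic-like cells. The cells that no marker gate took, 301 and 694, had 4103 and 6321 CPM.

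A member was called measured in a class if it had at least 100 UMIs over both libraries, and higher or lower if its CPM differed by at least 1.5-fold. These calls rest on size alone, and the counts of members depend on a choice made with earlier results of these data known. No measured member was lower by 1.5-fold in any of the 6 classes. Oasl2 and Ifi27l2a were higher in all 6 classes and Ifi44 in 5. Oasl1, Oas1a, Usp18 and Samd9l were higher in 4, while Ifi35 and Oas2 were higher in none. Bst2, Sp100 and Irf9 were higher in 1 class each.

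**Figure D2:**
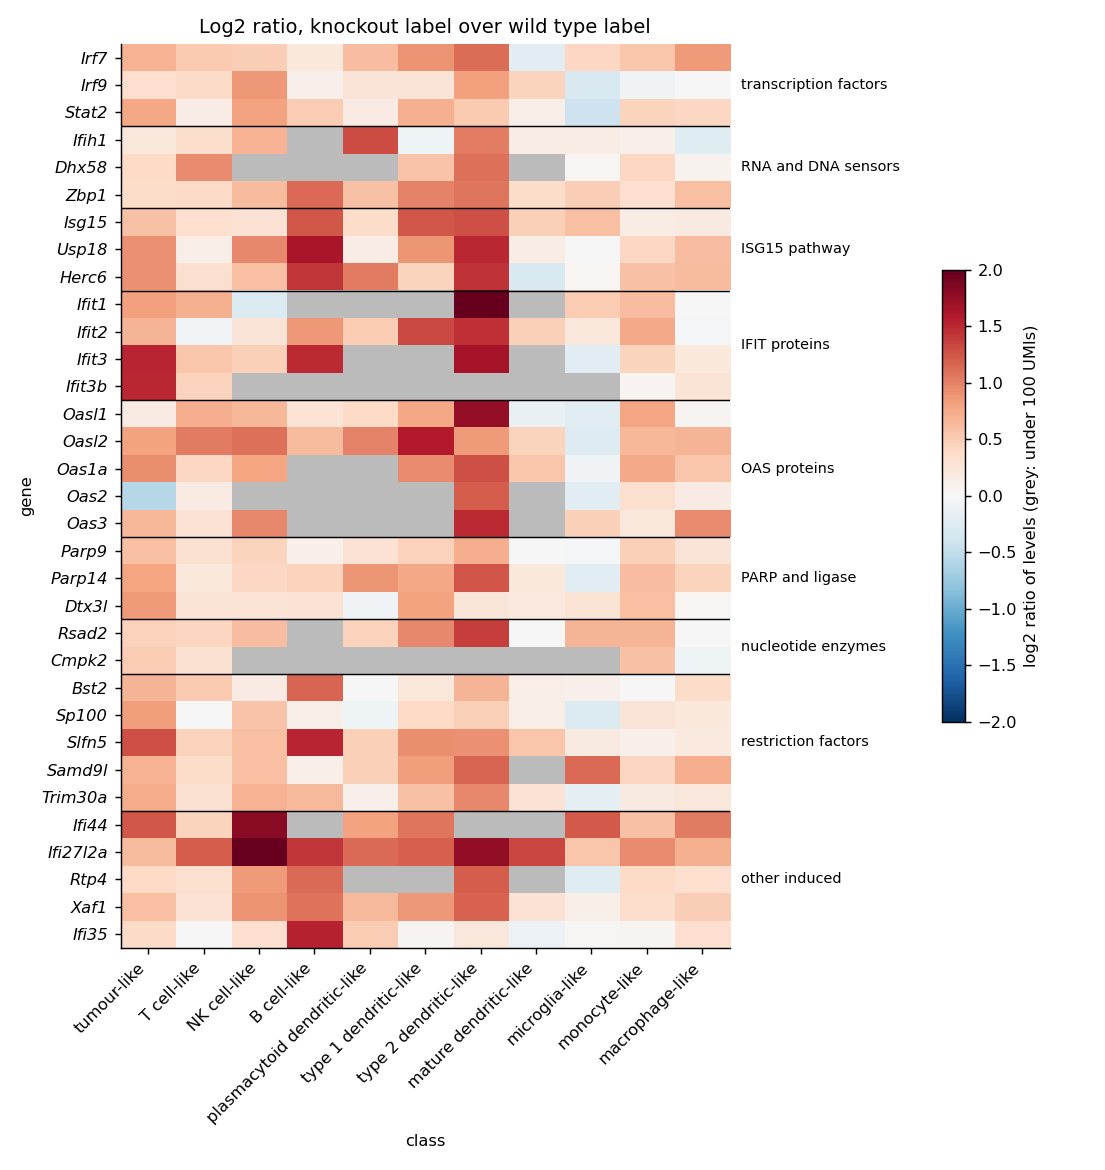
Log2 ratio of CPM, knockout label over wild type label, for each member (rows, grouped by role) in 11 cell classes (columns). Colour runs from -2 to 2, and grey marks members with fewer than 100 UMIs in the class. Ratios above 0 prevail in most columns, and the columns of tumour-like and type 2 dendritic-like cells hold the most members past 1.5-fold.

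In tumour-like cells (657 and 1029 cells) 23 of 33 measured members were past the limit on the higher side and none on the lower. Of all 12598 measured genes of the class, 10.9% were higher and 7.22% lower by the same limit. The median log2 ratio was 0.69 over the 33 measured members and 0.010 over all 12598 measured genes. By role, the antiviral IFIT proteins, which bind viral RNA, had the largest ratio of summed levels, led by Ifit3 and Ifit3b. Ifit3 stood at 73.2 and 209.99 CPM (log2 ratio 1.52, 1.44 to 1.60). Its near copy Ifit3b stood at 18.1 and 51.7 CPM (log2 ratio 1.51, 1.36 to 1.67). The 4 IFIT genes together had 241 and 515 CPM, a ratio of 2.14 (2.07 to 2.20). Slfn5, a nuclear protein of the Schlafen family, had 12.1 and 29.8 CPM (log2 ratio 1.29, 1.10 to 1.49). Ifi44, an interferon-induced cytoplasmic protein, had 54.8 and 130.3 CPM (log2 ratio 1.25, 1.16 to 1.34). Both were more than 2 times as high under the knockout label. Within the Isg15 pathway, Isg15, the ubiquitin-like modifier, had 404 and 607 CPM (log2 ratio 0.59, 0.55 to 0.62), just past the limit. Herc6 had 351 and 665 CPM (log2 ratio 0.92, 0.88 to 0.96). All 3 genes of this pathway were called higher, Usp18, which removes Isg15 and restrains the receptor, among them. Bst2, the most abundant member here, had 1160.2 and 1849 CPM (log2 ratio 0.67, 0.65 to 0.69). Of the OAS proteins, enzymes that make the oligoadenylates that activate RNase L, Oas1a had 29.5 and 56.01 CPM (log2 ratio 0.92, 0.80 to 1.05). Oas2 had 3.75 and 2.53 CPM (log2 ratio -0.57, -1.02 to -0.11), a ratio on the other side of 0 from the other members of this class. Irf9, the DNA-binding part of the response complex, had 48.5 and 61.2 CPM (log2 ratio 0.34, 0.23 to 0.44). The RNA sensor Ifih1 (MDA5) had 72.7 and 84.9 CPM (log2 ratio 0.22, 0.14 to 0.31), and Oasl1 had 7.15 and 8.02 CPM (log2 ratio 0.17, -0.12 to 0.46). None of these 3 was past the limit, nor was any of the 3 nucleic acid sensors. The log2 ratio was 0.37 to 0.91 over the other 21 measured members.

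The difference was not of the same size in all tumour-like cells. In the 4 Leiden clusters of tumour-like cells with at least 20 cells in each library the ratio of the summed level ranged from 1.21 to 1.69. It was largest in the cluster led by Mdga2, Lrp1b and Cadm2 (4168 and 7036 CPM), and smallest in the cluster led by Apoc1, Col2a1 and Enpp2 (6685 and 8068 CPM). The latter had the highest level of the 4 in both libraries and held 52 and 382 cells. When each cluster was given the same weight in both libraries, which was added after seeing the data, 7 rather than 23 members were past the limit and the log2 ratio of the sum was 0.55 rather than 0.70. With each cell given the same weight, 15 members were past it. The share of all genes past the limit was not counted under either weighting. Markers of other classes moved too. The 12 macrophage markers summed to 1708 and 2603 CPM in tumour-like cells, and 6 of the 17 other marker lists were at least 1.5-fold higher and 5 lower. Their part in the result was not tested. Xist UMIs without Y-linked UMIs were found in 4 and 118 tumour-like cells, Y-linked UMIs without Xist in 32 and 19, and neither in 621 and 892. Whether the cells with such UMIs were host cells, or held RNA of host cells, was not tested. Of the 33 members, 26 stood in tumour-like cells at 20% or more of the highest level of any other class, and 18 of these were higher. The levels compared were those of the library in which the member was higher, so this count is tied to the filter. The share of all genes higher under this filter was not counted.

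T cell-like cells (601 and 1547 cells) differed mainly in Ifi27l2a. It stood at 872 and 2010.4 CPM (log2 ratio 1.21, 1.16 to 1.25), and it supplied most of the difference in the summed level. Without Ifi27l2a and Bst2, the log2 ratio of the sum was 0.29 rather than 0.62. In all, 5 of 33 members were higher and none lower, where of 10077 measured genes 5.32% were higher and 2.39% lower. The median log2 ratio was 0.35 over the 33 measured members and -0.019 over all 10077 measured genes. Oasl2, an OAS-like protein, had the next largest ratio, at 17.8 and 36.4 CPM (log2 ratio 1.03, 0.73 to 1.35). Its relative Oasl1 was scarce, at 12.1 and 20 CPM (log2 ratio 0.73, 0.35 to 1.12). Dhx58 (LGP2), a regulator of the RNA sensors, stood at 12.4 and 23.95 CPM (log2 ratio 0.95, 0.58 to 1.33). Ifit1, which binds foreign RNA caps, had 36.1 and 59.1 CPM (log2 ratio 0.71, 0.50 to 0.93). At the other end, Sp100 stood at 323 and 326 CPM (log2 ratio 0.011, -0.064 to 0.087) and Ifi35 at 98.1 and 98.97 CPM (log2 ratio 0.013, -0.12 to 0.15). For Usp18 the levels were 46.5 and 50.9 CPM (log2 ratio 0.13, -0.065 to 0.34) and for Ifit2 36.6 and 35.1 CPM (log2 ratio -0.060, -0.29 to 0.17). These 4 were the members closest to equal levels. Isg15 had 214 and 270.1 CPM (log2 ratio 0.34, 0.25 to 0.43), and the log2 ratio was 0.15 to 0.56 over the other 23 measured members. The count of 5 members was 8 with called doublets removed and 11 with classes taken from clusters, and 2 in Y-linked cells alone, where 28 members were measured, 4 of the 5 among them. The share of all genes past the limit was not counted without doublets or with classes from clusters. Markers of macrophages in these cells summed to 192 and 351 CPM and those of NK cells to 4435 and 2527 CPM, and their part was not tested.

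In NK cell-like cells (264 and 639 cells) 18 of 29 measured members were higher and none lower, where of 7184 measured genes 7.43% were higher and 7.31% lower. The median log2 ratio was 0.62 over the 29 measured members and 0.047 over all 7184 measured genes. Ifi27l2a had 14.3 and 91.5 CPM (log2 ratio 2.68, 2.16 to 3.24). The level under the knockout label was 4.55% of that in the highest other class of its library. Ifi44 had 8.94 and 31.4 CPM (log2 ratio 1.81, 1.13 to 2.56), Oasl2 had 12.97 and 27.7 CPM (log2 ratio 1.09, 0.51 to 1.73) and Oas3 9.84 and 19.2 CPM (log2 ratio 0.97, 0.28 to 1.71). All 4 measured OAS genes were higher. Usp18 had 38.5 and 75.2 CPM (log2 ratio 0.97, 0.62 to 1.32). The abundant members differed less: Sp100 stood at 286 and 427 CPM (log2 ratio 0.58, 0.45 to 0.71). Trim30a, a regulator of Toll-like receptor signalling in mice, stood at 166 and 269 CPM (log2 ratio 0.70, 0.53 to 0.87). Bst2 had 146 and 164 CPM (log2 ratio 0.16, -0.024 to 0.35). None of the 3 measured IFIT genes was past the limit. Ifit1 had 29.96 and 24.8 CPM (log2 ratio -0.27, -0.72 to 0.18) and Ifit2 had 34.9 and 41.7 CPM (log2 ratio 0.26, -0.13 to 0.65), and of the ligase complex Dtx3l had 44.3 and 53.7 CPM (log2 ratio 0.28, -0.061 to 0.63). The log2 ratio was 0.30 to 0.89 over the other 18 measured members. Macrophage markers in NK cell-like cells summed to 75.6 and 345 CPM and tumour markers to 23.7 and 176 CPM, and their part was not tested. With the members kept to those at 20% or more of the highest level of any other class, 9 of 15 were higher. The levels compared were those of the library in which the member was higher, so this count is tied to the filter. The share of all genes higher under this filter was not counted. In Y-linked cells alone, where 13 members were measured, 1 was higher, against 5 of the same 13 over all cells. The share of all genes past the limit was not counted in these Y-linked cells. The count of 18 was 5 with each cell given the same weight, and 10 with clusters weighted alike or with classes from clusters. For these alternatives, too, the share of all genes past the limit was not counted.

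Type 1 dendritic-like cells, which present antigen to CD8 T cells, numbered 140 and 100. In them 18 of 26 measured members were higher and none lower, where of 6277 measured genes 4.21% were higher and 4.67% lower. The median log2 ratio was 0.83 over the 26 measured members and -0.040 over all 6277 measured genes. Oasl2 had 17.7 and 52.8 CPM (log2 ratio 1.58, 1.12 to 2.06). Ifit2 had 62.3 and 155 CPM (log2 ratio 1.32, 1.07 to 1.58) and was the only IFIT gene measured here. Isg15 had 216 and 510.2 CPM (log2 ratio 1.24, 1.11 to 1.38) and was the most abundant member of the class under the knockout label. Ifi27l2a stood at 118 and 269 CPM (log2 ratio 1.20, 1.01 to 1.38) and Ifi44 at 22.98 and 48.1 CPM (log2 ratio 1.06, 0.63 to 1.51). Oasl1, highest in this class, had 257 and 439 CPM (log2 ratio 0.77, 0.64 to 0.90). These 6 were all past the limit. Bst2 had 276 and 322 CPM (log2 ratio 0.22, 0.085 to 0.36), Irf9 65.6 and 78.3 CPM (log2 ratio 0.25, -0.031 to 0.54) and Ifi35 157 and 162 CPM (log2 ratio 0.047, -0.14 to 0.24). Ifih1 had 70.6 and 66.6 CPM (log2 ratio -0.083, -0.38 to 0.21), the largest difference in the other direction. None of these 4 was past the limit, and the log2 ratio was 0.40 to 0.996 over the other 16 measured members. The summed level had a log2 ratio of 0.73, and of 0.43 in Y-linked cells alone, where 5 of 21 measured members were past the limit, against 14 of the same 21 over all cells. The share of all genes past the limit was not counted in these Y-linked cells. The 12 macrophage markers summed to 282 and 463 CPM in this class, and their part was not tested.

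Monocyte-like cells (108 and 310 cells) had the highest member levels under both labels, and 11 of 33 members were higher and none lower, where of 5016 measured genes 7.02% were higher and 7.7% lower. The median log2 ratio was 0.44 over the 33 measured members and -0.031 over all 5016 measured genes. Ifi27l2a had 967 and 1855 CPM (log2 ratio 0.94, 0.84 to 1.04). Oasl1 had 225 and 389 CPM (log2 ratio 0.79, 0.57 to 1.02) and Oas1a 91.2 and 154 CPM (log2 ratio 0.75, 0.41 to 1.11). Ifit2 stood at 291 and 492 CPM (log2 ratio 0.76, 0.56 to 0.95). Both nucleotide-modifying enzymes were called higher. Rsad2 (viperin), which turns CTP into a chain terminator, had 376 and 604 CPM (log2 ratio 0.68, 0.51 to 0.86), and its neighbour Cmpk2, a mitochondrial nucleotide kinase, was past the limit as well. Isg15, the most abundant member under the wild type label, stood at 1588 and 1752 CPM (log2 ratio 0.14, 0.057 to 0.23). Bst2 stood at 702 and 708 CPM (log2 ratio 0.012, -0.12 to 0.14), Irf9 at 70.1 and 66.6 CPM (log2 ratio -0.073, -0.49 to 0.36) and Ifit3b at 47.8 and 49.4 CPM (log2 ratio 0.047, -0.46 to 0.58). With Ifi35 at 172 and 178 CPM (log2 ratio 0.049, -0.21 to 0.32), these 5 were within the limit, and the log2 ratio was 0.10 to 0.66 over the other 23 measured members. Scaling by trimmed means (TMM) shifted every log2 ratio of this class by 0.12 upwards. In Y-linked cells alone the log2 ratio of the sum was 0.12 rather than 0.43, and 3 of 27 measured members were past the limit, against 9 of the same 27 over all cells. The share of all genes past the limit was not counted in these Y-linked cells.

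In macrophage-like cells (578 and 744 cells) 9 of 33 members were higher and none lower, where of 9607 measured genes 5.43% were higher and 5.39% lower, and the median log2 ratio was 0.27 over the 33 measured members and -0.036 over all 9607 measured genes. Irf7, the factor that drives interferon genes in a positive feedback, had 194 and 352 CPM (log2 ratio 0.86, 0.78 to 0.94). Oas3 had 22.2 and 42.96 CPM (log2 ratio 0.95, 0.72 to 1.18) and Ifi44 36.5 and 74.7 CPM (log2 ratio 1.03, 0.86 to 1.21). Samd9l, a protein that inhibits translation, had 25.8 and 42.7 CPM (log2 ratio 0.73, 0.51 to 0.95). Ifi27l2a stood at 545 and 896 CPM (log2 ratio 0.72, 0.67 to 0.76), Bst2 at 714 and 919 CPM (log2 ratio 0.36, 0.32 to 0.41) and Isg15 at 602 and 683 CPM (log2 ratio 0.18, 0.14 to 0.23). Of these abundant members Ifi27l2a alone was past the limit. None of the IFIT genes and neither nucleotide-modifying enzyme was past it. Ifit1 had 40.2 and 40.1 CPM (log2 ratio -0.0029, -0.19 to 0.19) and Ifit2 102 and 99.6 CPM (log2 ratio -0.033, -0.15 to 0.088). Cmpk2 had 6.54 and 6.19 CPM (log2 ratio -0.080, -0.57 to 0.42) and Ifih1 127 and 107 CPM (log2 ratio -0.24, -0.35 to -0.13). The log2 ratio was -0.0027 to 0.68 over the other 22 measured members. In Y-linked cells alone Ifi27l2a had a log2 ratio of -0.088, on the other side of 0. The 10 monocyte markers summed to 4220.4 and 5504 CPM in macrophage-like cells, and their part was not tested.

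Of the classes with fewer than 100 cells in a library, type 2 dendritic-like cells differed most, with 4015 and 8593 CPM, a ratio of 2.14 (2.06 to 2.22), and 26 of 30 measured members were higher and none lower by 1.5-fold, where of all 3739 measured genes 10.3% were higher and 6.85% lower. Most of these cells lay near a gate limit, 37 of 68 and 77 of 110. Of the 17 marker lists of other classes, 6 lists were 1.5-fold higher and 2 lower in them (1.5-fold or more). T cell markers summed to 23.1 and 134 CPM, macrophage markers to 279 and 708 CPM, mature dendritic markers to 257 and 546 CPM, tumour markers to 35.8 and 95.5 CPM and monocyte markers to 2239.7 and 3317 CPM, and their part was not tested. B cell-like cells (58 and 292) had 2318 and 4029 CPM, a ratio of 1.74 (1.60 to 1.89), with 14 of 23 measured members higher and none lower, where of all measured genes 14.1% were higher and 10.9% lower. Macrophage markers in them summed to 704 and 1423 CPM and tumour markers to 24.4 and 118 CPM, and 4 lists were 1.5-fold higher and 1 lower. Plasmacytoid dendritic-like cells (64 and 223), the specialised producers of type I interferon, had 6564 and 8183 CPM, a ratio of 1.25 (1.20 to 1.29), with 8 of 24 higher and none lower, where of all measured genes 6.37% were higher and 5.19% lower. Macrophage markers there summed to 82.6 and 519 CPM, NK cell markers to 30.3 and 241 CPM and mature dendritic markers to 279.7 and 111 CPM, and 3 lists were 1.5-fold higher and 1 lower. In mature dendritic-like cells (89 and 225) the levels were 3296 and 4098 CPM, a ratio of 1.24 (1.19 to 1.30), with 1 of 23 higher and none lower, where of all measured genes 6.13% were higher and 4.95% lower. Microglia-like cells (74 and 346) had the smallest difference, 4355 and 4727 CPM, a ratio of 1.09 (1.05 to 1.13), with 4 of 31 higher and none lower, where of all measured genes 6.01% were higher and 5.08% lower. T cell markers summed to 84.3 and 199 CPM in mature dendritic-like cells and to 17.8 and 51.4 CPM in microglia-like cells, where 7 lists were 1.5-fold higher and 2 lower, and 5 lists were 1.5-fold higher and 2 lower, respectively. The part of these markers was not tested. Of the same 17 lists, 6 lists were 1.5-fold higher and 2 lower in T cell-like, 9 lists were 1.5-fold higher and none lower in NK cell-like, 3 lists were 1.5-fold higher and 5 lower in type 1 dendritic-like, 2 lists were 1.5-fold higher and 1 lower in monocyte-like and 2 lists were 1.5-fold higher and 1 lower in macrophage-like cells. In monocyte-like cells T cell markers summed to 17.8 and 88.4 CPM and tumour markers to 165 and 63.7 CPM.

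The remaining members are described by role, as the range of the log2 ratio over the 6 classes where each was measured. The log2 ratio of Irf7 ranged from 0.50 to 0.90 and that of Stat2 from 0.15 to 0.80, whereas Irf9 ranged from -0.073 to 0.87. Oasl2 ranged from 0.66 to 1.58 and Oas1a from 0.42 to 0.94. The IFIT genes were less alike. The ratio of their summed level was 2.14 (2.07 to 2.20) in tumour-like cells and 1.04 (0.986 to 1.10) in macrophage-like cells. In type 1 dendritic-like cells it was 2.37 (2.03 to 2.77), but only Ifit2 of the 4 genes was measured there, and it supplied most of the sum. Ifit1 ranged from -0.27 to 0.82, Ifit2 from -0.060 to 1.32 and Ifit3 from 0.21 to 1.52. Of the sensors, Zbp1, which recognises Z-form nucleic acid, ranged from 0.34 to 0.996, Dhx58 from 0.078 to 0.95 and Ifih1 from -0.24 to 0.70. The ADP-ribosyltransferases Parp9 and Parp14 ranged from 0.25 to 0.60 and from 0.21 to 0.79, and Dtx3l, the ubiquitin ligase that pairs with Parp9, from 0.035 to 0.85. All 3 of that complex had ratios above 0 in all 6 classes. Among the restriction factors, Samd9l ranged from 0.37 to 0.84, Trim30a from 0.18 to 0.75, Slfn5 from 0.11 to 1.29, Sp100 from 0.011 to 0.83 and Bst2 from 0.012 to 0.67. Rtp4, a receptor transporter, and Xaf1, a partner of apoptosis inhibitors, ranged from 0.33 to 0.86 and from 0.29 to 0.89.

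To describe the spread over cells, each cell was thinned to 2000 UMIs and its member UMIs were counted. A cell with at least 20 of 2000, or 1%, was called rich. The rich share rises with more strongly responding cells and also with a general shift, so it cannot tell these apart. In tumour-like cells the median was 8 and 13 member UMIs per cell, and the rich share was 9.13% (7.04 to 11.6) and 20.4% (17.98 to 23.01). At a limit of 2% instead, the shares of tumour-like cells were 1.22% and 1.07% (8 of 657 and 11 of 1024 cells). In T cell-like cells the rich share was 7.38% (5.42 to 9.78) and 14.96% (13.2 to 16.8), with medians of 6 and 8. In macrophage-like cells it was 5.42% (3.71 to 7.60) and 14.7% (12.2 to 17.5), with medians of 8 and 11. Monocyte-like cells had the largest rich share, 37.96% (28.8 to 47.8) and 53.9% (48.2 to 59.6), so that under the knockout label more cells were rich than not. Their medians were 14.5 and 21. For type 1 dendritic-like cells the shares were 2.86% (0.784 to 7.15) and 10% (4.90 to 17.6), and for NK cell-like cells 2.67% (1.08 to 5.43) and 3.16% (1.94 to 4.84). The rich share was higher under the knockout label in 11 of 11 classes. Unthinned it was 7.002% and 16.03% in tumour-like, 5.99% and 13.4% in T cell-like, 2.27% and 2.66% in NK cell-like, 2.14% and 9% in type 1 dendritic-like, 37.04% and 54.2% in monocyte-like and 4.84% and 11.02% in macrophage-like cells, and higher in 10 of 11 classes, microglia-like cells being the exception. At the 2% limit it was higher in 7 of 11. In Y-linked cells alone it was higher in 6 of 10 host classes and lower in 3. The lower ones were NK cell-like cells, at 1.95% and 1.32%, type 1 dendritic-like cells, at 2.86% and 0% in 140 and 21 cells, and microglia-like cells, at 3.45% and 1.19%. A count of 0 in 21 cells allows a share of up to 16.1%. In B cell-like cells no Y-linked cell of either library was rich, of 44 and 53, which allows up to 8.04% and 6.72%. Among the 6 classes with 100 or more cells thinning left out at most 6 (wild type) and 10 (knockout) cells of a class.

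**Figure D3:**
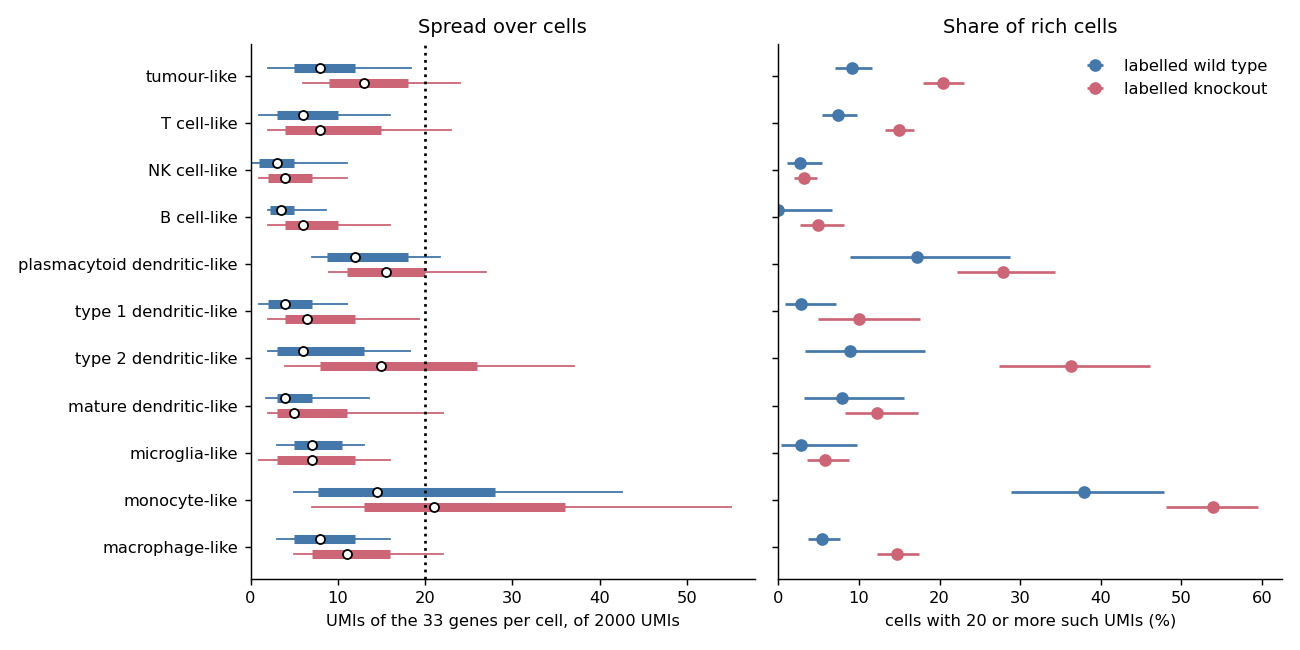
Left, member UMIs per cell after thinning to 2000 UMIs, by class and library (point, median; bar, quartiles; thin line, 10th to 90th percentile), with a dotted line at 20 UMIs. Right, the percentage of cells at or above that line with exact binomial 95% intervals. Over all cells the rich share is larger under the knockout label in all 11 classes, which does not hold in Y-linked cells alone, and it is largest in monocyte-like cells.

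Host cells of the library labelled knockout came from both sexes, which allowed comparison inside that library. In T cell-like cells the summed level was 3043 CPM in 513 Y-linked cells under the wild type label, 3706 CPM in 277 Y-linked cells under the knockout label and 5067 CPM in 1109 Xist cells. The ratio between the Y-linked cells of the libraries was 1.22 (1.19 to 1.25), and between Xist and Y-linked cells of the library labelled knockout 1.37 (1.34 to 1.40). In this class the step inside the library labelled knockout was thus larger than the step between the libraries at matched sex. For monocyte-like cells the 3 levels were 9041, 9801 and 12664 CPM in the same order, for macrophage-like cells 4549, 5283 and 6152 CPM and for NK cell-like cells 1708, 2127 and 2663 CPM. In each of these the Xist cells were highest and the Y-linked cells under the wild type label lowest. Type 2 dendritic-like cells, at 3871, 8145 and 8669 CPM, and plasmacytoid dendritic-like cells, at 6432, 8189.5 and 8294 CPM, differed between the libraries and little inside the library labelled knockout. Microglia-like cells went the other way between the libraries, at 4407, 2816 and 5228 CPM, and mature dendritic-like cells, with 15 Y-linked cells under the knockout label, inside it, at 3382, 5431 and 3928 CPM.

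Over the 10 host classes, the ratio between the Y-linked cells of the libraries was above 1 in 9 and had a median of 1.25 (range 0.639 to 2.10). The ratio of Xist over Y-linked cells under the knockout label was above 1 in 9 and had a median of 1.27. T cell-like cells split by Cd8 and Cd4 gave the same order: 2677, 2877 and 3946 CPM in Cd8 cells and 3615, 4469 and 5589.9 CPM in Cd4 cells. Median depths in the same order were 8272, 8862 and 9164 UMIs for T cell-like, 17366, 17804 and 19162 for macrophage-like, 7585, 10228 and 8537 for monocyte-like, 8214, 7837 and 14684 for microglia-like and 3986, 6997 and 7662 for B cell-like cells, so that depth differed with the groups in the last 3. Cacna1h stood at 0.496 CPM (0.256 to 0.866) in Y-linked host cells under the wild type label, 2.58 CPM (1.67 to 3.81) in those under the knockout label and 2.33 CPM (1.90 to 2.82) in Xist cells. Xist cells were present in the library labelled knockout alone, so sex, animal and genotype cannot be told apart in them, nor library and genotype between the Y-linked cells.

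**Figure D4:**
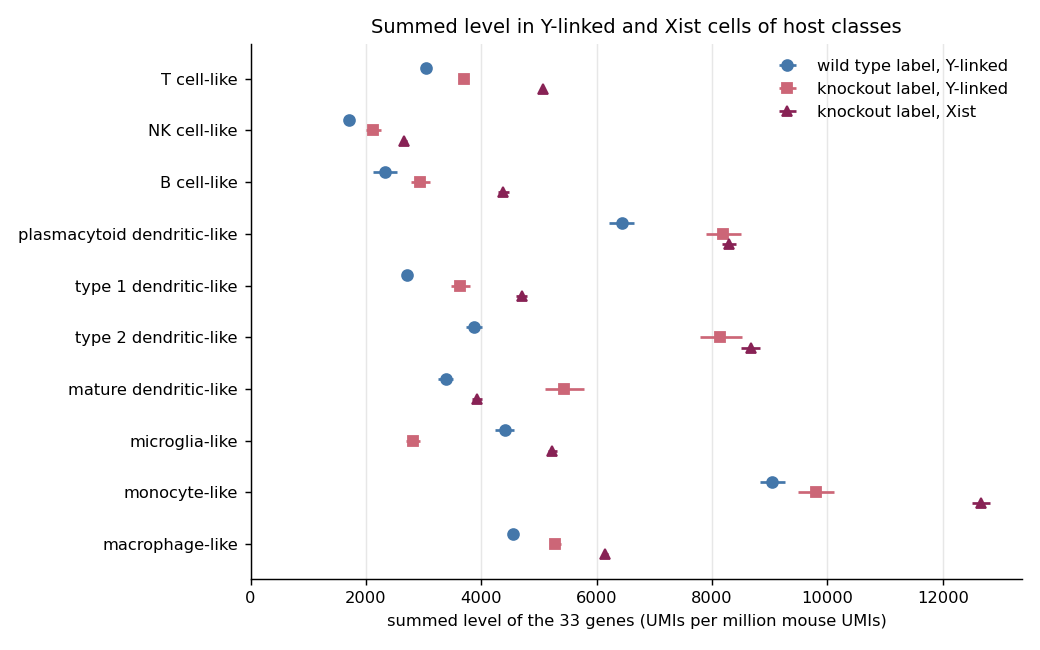
Summed level of the 33 members in CPM for host cells with Y-linked UMIs under the wild type label, with Y-linked UMIs under the knockout label and with Xist UMIs under the knockout label, in 10 host classes, with 95% Poisson intervals. Xist cells are highest in 9 of 10 classes, mature dendritic-like cells being the exception.

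Member by member, Y-linked T cell-like cells of the 2 libraries were close apart from Ifi27l2a. Ifi27l2a stood at 867, 1612 and 2144 CPM in Y-linked cells under the wild type label, Y-linked cells under the knockout label and Xist cells. Without it the ratio of the summed level between the Y-linked cells was 0.962 (0.933 to 0.993). Of 28 measured members 2 were higher and none lower, where of 7690 measured genes 2.08% were higher and 5.11% lower, and the median log2 ratio was -0.044, with -0.055 over all genes. The second past the limit was Dhx58, at 12.2, 18.8 and 24.5 CPM. Xist over Y-linked T cell-like cells of the library labelled knockout gave ratios above 1 for all 33 measured members. There 13 were higher and none lower, where of 9227 measured genes 5.47% were higher and 1.39% lower, with medians of 0.55 and 0.038. Without Ifi27l2a the ratio of the sum was 1.40 (1.36 to 1.43). Isg15 stood at 189.9, 162 and 296 CPM in the order above. For Ifit3 the levels were 43.7, 33.2 and 75.4 CPM and for Bst2 185, 171 and 291 CPM. In each of the 3 the Xist cells were highest and the Y-linked cells under the knockout label lowest. The rich share of T cell-like cells was lowest in the Y-linked cells under the wild type label, at 7.68%, 8.66% and 16.9%.

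Macrophage-like cells differed from this pattern. Between the Y-linked cells of the libraries 7 of 31 measured members were higher and none lower, where of 8114 measured genes 6.66% were higher and 14.5% lower, with medians of 0.25 and -0.10. Without Ifi27l2a the ratio of the summed level was 1.19 (1.16 to 1.22). For Xist over Y-linked cells under the knockout label 3 of 32 were higher and 1 lower, where of 8373 measured genes 9.09% were higher and 2.91% lower, with medians of 0.17 and 0.065 and a ratio without Ifi27l2a of 1.09 (1.06 to 1.11). The share of members higher there was close to that of all genes. Ifi27l2a stood at 543, 511 and 973 CPM, higher in the Xist cells alone. Rsad2 was the member lower in Xist cells, at 97.7, 145 and 85.7 CPM. Their rich shares were 5.21%, 8.77% and 15.7%.

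**Figure D5:**
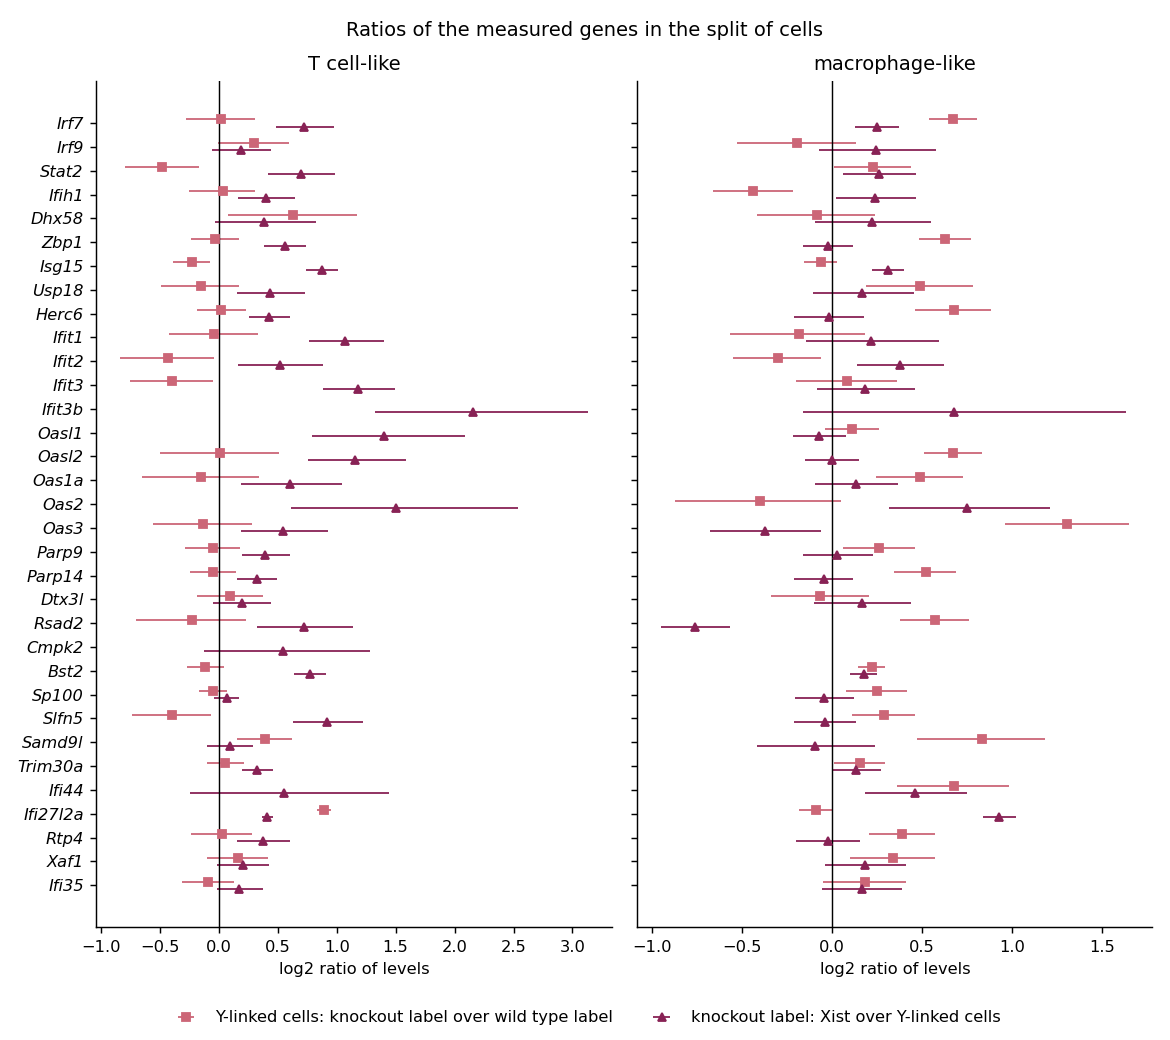
Log2 ratios of the measured members in T cell-like and macrophage-like cells for Y-linked cells, knockout over wild type label, and for Xist over Y-linked cells inside the library labelled knockout, with exact 95% counting intervals. In T cell-like cells the second set lies above 0 for all 33 members and the first is centred near 0, with Ifi27l2a apart.

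The rest of the pathway was set beside the members. The 16 type I interferon ligand genes were close to the limit of detection, with 10 and 45 UMIs over all kept cells (0.192 and 0.447 CPM). Ifnz supplied 10 and 37 of these. Ifnb1 had 0 and 1 UMI, and a count of 0 allows up to 0.0577 CPM. Ifng, the gene of interferon gamma, had 3761 UMIs (649.5 CPM, 629 to 671) and 7988 UMIs (458 CPM, 448 to 468) in T cell-like cells, lower under the knockout label. In NK cell-like cells it had 353 UMIs (158 CPM, 142 to 175) and 853 UMIs (176 CPM, 165 to 188). Type 1 dendritic-like cells had 7 UMIs (2.33 CPM, 0.937 to 4.80) and 271 UMIs (98.7 CPM, 87.3 to 111), and type 2 dendritic-like cells 1 UMI (1.16 CPM, 0.0293 to 6.44) and 238 UMIs (154 CPM, 135 to 174). T cell markers summed to 108 and 105 CPM in type 1 and to 23.1 and 134 CPM in type 2 dendritic-like cells, and NK cell markers to 165 and 58.6 CPM and to 57.8 and 45.8 CPM. Whether the dendritic-like cells made these transcripts was not tested. Of the receptors and kinases none of 7 was past 1.5-fold in tumour-like cells (median log2 ratio 0.28), in type 1 dendritic-like, in monocyte-like or in macrophage-like cells. In T cell-like and NK cell-like cells 1 was higher.

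Other gene lists of the response are given as the number of measured genes that were higher, with the median log2 ratio of the list in brackets. Over all measured genes 10.9% were higher in tumour-like, 5.32% in T cell-like, 7.43% in NK cell-like, 4.21% in type 1 dendritic-like, 7.02% in monocyte-like and 5.43% in macrophage-like cells. Of the other interferon-induced genes the counts were 22 of 40 in tumour-like (0.63), 3 of 41 in T cell-like (0.23), 12 of 35 in NK cell-like (0.51), 14 of 36 in type 1 dendritic-like (0.48), 8 of 39 in monocyte-like (0.38) and 11 of 41 in macrophage-like cells (0.34). The T cell-like share was near that of all genes. Over all measured genes 7.22% were lower in tumour-like, 7.31% in NK cell-like, 4.67% in type 1 dendritic-like and 7.7% in monocyte-like cells. In NK cell-like cells 3 of the 35 measured genes of this list were lower, a share near that of all genes. These 3 are named after their values were seen. They were the membrane proteins Ifitm1, at 339 and 154 CPM (log2 ratio -1.14, -1.29 to -0.99), Ifitm2, at 368 and 144 CPM (log2 ratio -1.36, -1.50 to -1.21), and Ifitm3, at 319.8 and 154 CPM (log2 ratio -1.05, -1.20 to -0.90). Ifi27 was lower in tumour-like cells, at 169 and 112 CPM (log2 ratio -0.59, -0.66 to -0.53), and in monocyte-like cells, at 48.9 and 22.6 CPM (log2 ratio -1.12, -1.70 to -0.53). For the guanylate-binding proteins and immunity-related GTPases, which respond above all to interferon gamma, the counts were 12 of 15 in tumour-like (1.11), 3 of 14 in T cell-like (0.37), 6 of 12 in NK cell-like (0.56), 2 of 7 in type 1 dendritic-like (0.30), 4 of 12 in monocyte-like (0.32) and 1 of 13 in macrophage-like cells (0.10), and Gbp3 was lower in type 1 dendritic-like cells. The macrophage-like share was near that of all genes. For MHC class I and its loading genes the counts were 13 of 17 in tumour-like (0.70), 0 of 17 in T cell-like (0.035), 3 of 17 in NK cell-like (0.23), 0 of 17 in type 1 dendritic-like (0.25), 4 of 17 in monocyte-like (0.29) and 3 of 17 in macrophage-like cells (0.31), with none lower. Whether these lists differ from the members was not tested.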

How the data were processed

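The authors deposited raw UMI counts of 10x Genomics 3′ v3.1 libraries. Per the submitters' processing notes, Cell Ranger 7.1.0, Seurat 5.0.2 and the mm10 build were used, with no role given. Only the 32285 mouse genes of the 68886 listed features were used. Cells needed 500 or more mouse genes and no more than 10% of UMIs from mitochondria, which left out 3990 and 282 barcodes of the library labelled wild type for these reasons, and 1239 and 555 of the other. Kept cells had median depths of 12522 and 11071 UMIs and 3604 and 3306 genes. A cell took the class with the largest share of its markers detected, if that share was at least 40% (80% for type 1 dendritic-like cells) and led every rival class by 10 points, monocyte and macrophage not being rivals. This left 301 and 694 cells without a class, and doublets were treated by this margin alone. Scrublet calls (77 cells, 2.48%, as the highest scores, since its own threshold marked 0.289%, and 164 cells, 2.49%) were removed as an alternative. Member UMIs were summed per class and library, and log2 ratios of CPM carry exact 95% intervals from the binomial distribution, given the total of both counts. A count of 0 was read as up to 3 counts. Members and lists were chosen with earlier results of these data known. Values are printed for the 5 members with the largest and the 4 with the smallest log2 ratio and the 3 with the most UMIs per class, a split chosen after seeing the data, and lists are given as counts. Host cells were sexed by UMIs of Xist or of the Y-linked Ddx3y, Uty, Eif2s3y and Kdm5d. No p-value was computed. On Poisson counts simulated for 12528 genes of tumour-like and 10008 of T cell-like cells, the intervals covered the true ratio for 95.5% and 95.7% of genes. These draws follow the model that the intervals assume, so this checks the calculation only. They leave out the spread between cells and between animals. Scripts ran in Python 3.11.15 with scipy 1.17.1 for intervals, pandas 2.3.3 for tables, numpy 2.4.6 for sums and matplotlib 3.10.9 for figures. Leiden clusters of both libraries (scanpy 1.11.5, leidenalg 0.10.2; 2000 variable genes, 30 components, 15 neighbours, resolution 1) served the alternatives. Promoters are from RefSeq.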

Additional observations from a re-analysis of the deposited data

How the results depend on the processing

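No paired analysis was possible because each group was 1 library and no result came from a test. The summed member level of the 6 classes stayed higher under the knockout label in every alternative run, and the values given here are log2 ratios outside the counting interval of the ratio as reported and counts that differed from the reported count by more than 1.5 times. Smaller shifts of the counts are left out, such as 11 to 8 or to 14 in monocyte-like cells. Restricted to Y-linked cells, the log2 ratio was 0.28 in T cell-like, 0.32 in NK cell-like, 0.43 in type 1 dendritic-like, 0.12 in monocyte-like and 0.22 in macrophage-like cells, with 2 in T cell-like, 1 in NK cell-like, 5 in type 1 dendritic-like and 3 in monocyte-like cells past the limit. Shares of all genes were counted in Y-linked cells for T cell-like and macrophage-like cells only. Among members past the limit over all cells, the ratios that changed sign in that setting were those of Ifit1 (-0.040) and Oasl1 (-0.70) in T cell-like cells, of Oasl1 (-0.58), Usp18 (-0.54), Herc6 (-0.21) and Slfn5 (-1.10) in NK cell-like cells, of Rsad2 (-0.26), Usp18 (-0.32) and Parp14 (-0.31) in type 1 dendritic-like cells, of Ifit1 (-0.38) and Cmpk2 (-0.055) in monocyte-like cells and of Ifi27l2a (-0.088) in macrophage-like cells. Some of these ratios rest on fewer than 100 UMIs, as that of Oasl1 in T cell-like cells does, and their counting intervals are not given. Giving each cell the same weight, the log2 ratio was 0.61 in tumour-like, 0.49 in T cell-like, 0.33 in NK cell-like, 0.79 in type 1 dendritic-like and 0.46 in macrophage-like cells, with 15 in tumour-like and 5 in NK cell-like cells past the limit. Weighting the clusters alike, added after seeing the data, gave 0.55 in tumour-like, 0.53 in T cell-like, 0.40 in NK cell-like, 0.65 in type 1 dendritic-like, 0.37 in monocyte-like and 0.34 in macrophage-like cells, with 7 in tumour-like and 10 in NK cell-like cells past it. Leaving Ifi27l2a and Bst2 out of the sum, also added later, gave 0.72 in tumour-like, 0.29 in T cell-like, 0.39 in monocyte-like and 0.33 in macrophage-like cells. Classes taken from clusters gave 0.71 in T cell-like, 0.42 in NK cell-like, 0.64 in type 1 dendritic-like and 0.53 in monocyte-like cells, with 11 in T cell-like and 10 in NK cell-like cells past it, and Dtx3l in monocyte-like cells changed sign to -0.035. Without called doublets it was 0.65 in T cell-like and 0.82 in type 1 dendritic-like cells, with 8 in T cell-like cells past it. TMM scaling gave 0.68 in tumour-like, 0.79 in type 1 dendritic-like, 0.56 in monocyte-like and 0.41 in macrophage-like cells, and scaling without mitochondrial and ribosomal protein genes 0.67 in tumour-like cells. A wider gate margin gave 0.79 in type 1 dendritic-like and 0.42 in macrophage-like cells. At a limit of 2-fold the counts were 4 in tumour-like, 2 in T cell-like, 3 in NK cell-like, 5 in type 1 dendritic-like, 0 in monocyte-like and 1 in macrophage-like cells. The cause of these differences was not tested, other than that a stricter limit calls fewer members. No share of all genes was counted at 2-fold or in the other alternatives, apart from the Y-linked cells named above. Whether the counts of members there exceed such a share was therefore not tested. Over the 187 pairs of a measured member and a class, the looser and stricter cell filters moved none. Keeping Y-linked cells alone moved 78, besides the 12 changes of sign listed above. Equal weight per cell moved 55, clusters weighted alike 51, and classes from clusters 24, besides the change of sign of Dtx3l. Doublet removal moved 6, a wider gate margin 3, TMM scaling 2 and scaling without mitochondrial and ribosomal protein genes 1. Depth limited the scarce members: of the 6 classes, Oas2 was under 10 CPM in both libraries in 4, and so was Cmpk2 in 4. Fewer cells also leave fewer members with 100 UMIs, 13 of 33 in Y-linked NK cell-like cells.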

Other observations

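T cell-like cells also differed among themselves. The cluster led by Trat1, S1pr1 and Adk had the highest member level, 7032 and 8358 CPM, and the dividing cluster led by Cenpf and Hmmr one of the lowest, 1732 and 2929 CPM. The cluster led by the granzymes Gzmg, Gzmd and Gzme stood at 2148 and 2677 CPM. The ratio between the libraries ranged from 1.19 to 1.72 over these 6 clusters and was above 1 in each.

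Classes with few cells held some of the extremes, chosen after their values were seen. The 6 and 8 neutrophil-like cells had 3334 and 21876 CPM, the latter above every class described in the report. Oligodendrocyte-like cells had 2027 CPM in 29 Y-linked cells under the wild type label, 1541 CPM in 46 Y-linked cells under the knockout label and 5589 CPM in 44 Xist cells, while the median cell of either library held 1 member UMI after thinning. Endothelial-like cells (20 and 32) were lower under the knockout label, at 5669.9 and 4236 CPM.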
